A study of Mus musculus with 12 samples.

Results

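Glutathione transferases and the enzymes that make, reduce, use and break down glutathione were followed in mouse kidney by RNA sequencing. The set was chosen by gene symbol alone and holds 45 of the 19261 genes of the expression table. It comprises 22 soluble transferases (the Gsta, Gstk, Gstm, Gsto, Gstp, Gstt and Gstz genes), 3 microsomal transferases (Mgst1, Mgst2 and Mgst3), 8 glutathione peroxidases (Gpx genes), 4 genes of synthesis and reduction (Gclc, Gclm, Gss and Gsr) and 8 genes of breakdown (Ggt1, Ggt5, Ggt6, Ggt7, Ggct, Chac1, Chac2 and Oplah). The 12 libraries form 4 groups of 3. The busulfan plus AOS group received busulfan, a DNA-alkylating drug, once at 40 mg/kg, followed by alginate oligosaccharides (AOS), short chains cut from a seaweed polymer, at 10 mg/kg over 5 weeks. Mice of the busulfan group had the single 40 mg/kg dose alone. Those of the AOS group had AOS alone at the same dose and duration, and the control group had neither agent. The strain is spelled IRC in the labels, which call the tissue cells where the title and the protocol say kidney. The sources used here give no sex, no age and no interval between busulfan and tissue collection. Whether each sample is a different animal is not stated, and the p-values therefore measure a spread that may be technical.

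Glutathione is a tripeptide of glutamate, cysteine and glycine. Glutamate-cysteine ligase, made of the catalytic subunit Gclc and the modifier Gclm, carries out the rate-limiting step of its synthesis, Gss adds the glycine, and Gsr returns the oxidized form to the reduced form. Transferases join glutathione to reactive compounds, peroxidases use it to remove peroxides, and gamma-glutamyltransferases on the cell surface start the breakdown of glutathione and its conjugates, a step for which the brush border of the kidney proximal tubule is known. Busulfan itself is cleared by conjugation to glutathione, in humans mainly by the alpha-class enzyme GSTA1. Many genes of this system carry an antioxidant response element, the DNA site read by the transcription factor Nrf2.

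The core letters of that element, TGACNNNGC on either strand, were sought in RefSeq promoter windows of GRCm38.p6 (mm10) that run from 250 bases before to 50 bases after each start. Windows were held for 39 of the 45 genes, and 7 of the 39 (17.9%) contained the core, against 3781 of 27025 genes with a window (13.99%). The genes with a match were Gclm, Gsta3, Gstm5, Gstm7, Mgst1, Ggct and Ggt1. For 5 of them the match is shown with its flanks. These genes return in the results below as a synthesis gene or as transferases measured higher in some busulfan-treated libraries. Ggct and Ggt1, not shown, were lower on average with busulfan (log2 fold changes of -0.33 and -0.13), as was Gclm (-0.16). None of the 7 genes was called in the tests described below. The core is in capitals, each sequence runs 5′ to 3′ on the stated strand, and the position is the centre of the core relative to the start.
Gclm, chr3:122245413-122245441, minus strand, centre at -130: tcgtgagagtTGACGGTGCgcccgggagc
Mgst1, chr6:138140461-138140489, minus strand, centre at -52: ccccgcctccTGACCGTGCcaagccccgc
Gsta3, chr1:21240454-21240482, plus strand, centre at -117: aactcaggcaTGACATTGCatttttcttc
Gstm7, chr3:107931725-107931753, minus strand, centre at -125: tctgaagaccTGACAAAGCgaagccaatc
Gstm5, chr3:107895802-107895830, plus strand, centre at -38: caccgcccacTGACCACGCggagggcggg
The 5 sequences share the core letters and differ in the 3 free positions within it. A match describes letters only. No window was at hand for Gclc, Gsr, Gsta4, Gstt2, Ggt5 or Oplah.

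The libraries held 13875942 to 15329346 estimated reads. At this depth a gene with a count of 0 may still stand at up to 0.196 to 0.216 CPM (counts scaled to the library total), where only counting error is covered. Proximal tubule markers led the kidney markers in every library, at 36672 to 61830 CPM for 10 genes. Of these genes Kap alone held 20629 to 44222 CPM, and it was lowest in busulfan replicate 3. In 2 libraries transcripts of other organs stood out. The 15 hepatocyte markers summed to 18370 CPM in busulfan plus AOS replicate 3, against 31.5 to 385 CPM in the other 11 libraries. In busulfan replicate 3 the sum of 12 adrenal markers was 10689 CPM, against 54.1 to 66.7 CPM elsewhere. That library also had the lowest proximal tubule sum, and its adipose sum of 3075 CPM was followed by 2835 CPM in busulfan replicate 2, with 1044 to 1910 CPM in the other 10. Many of the fold changes below are therefore also given without these libraries.

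Peroxidases dominated the set. Levels between genes are given as FPKM, estimated fragments per kilobase of transcript, scaled to the library total. The 45 genes together held 2.31% to 3.25% of all reads, and Gpx3 alone 1.68% to 2.62%. Gpx3, the secreted plasma peroxidase of which the kidney is the main source, measured 15302, 18971 and 13389 FPKM in busulfan plus AOS, 12202, 15316 and 14505 FPKM in busulfan, 13203, 13286 and 17023 FPKM in AOS and 18125, 12244 and 16178 FPKM in control. The 4 groups overlapped, and the highest library was 1.55 times the lowest. Gpx1, the cytosolic peroxidase, measured 1403, 1418 and 1573 FPKM in busulfan plus AOS, 1315, 1706 and 1362 FPKM in busulfan, 1342, 1257 and 1227 FPKM in AOS and 1494, 1245 and 1509 FPKM in control. Gpx4, which reduces lipid peroxides in membranes, averaged 541 FPKM over the 12 libraries, and 34.7% of the 50-base stretches of its transcripts also occur in other transcripts, pseudogenes among them. Gpx6 and Gpx8 averaged 19.4 and 13.6 FPKM. Gpx2 and Gpx5, peroxidases of the gut and of the epididymis, were at 0 reads in 10 and 11 of the 12 libraries.

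Of the soluble transferases, the mu-class Gstm1 and the pi-class Gstp1 were the most abundant. Gstm1 measured 334, 301 and 419 FPKM in busulfan plus AOS, 382, 275 and 217 FPKM in busulfan, 348, 394 and 243 FPKM in AOS and 340.0, 452 and 352 FPKM in control. Gstp1 measured 254, 245 and 562 FPKM in busulfan plus AOS, 426, 252 and 231 FPKM in busulfan, 399.9, 294 and 242 FPKM in AOS and 478, 266 and 254 FPKM in control. For both genes the groups overlapped, and the highest Gstp1 value was in the library with hepatocyte transcripts. Gstz1, which also acts in tyrosine breakdown, followed at a mean of 235 FPKM, then Gstm5 at 140.4, the theta-class Gstt2 at 97.7 and Gstt1 at 80.5, and the mitochondrial and peroxisomal Gstk1 at 75.7 FPKM. The alpha class was lower: Gsta2, Gsta3 and Gsta4 averaged 41.2, 37.0 and 22.6 FPKM.

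The alpha-class gene Gsta2 was uneven within groups. It measured 40.0, 73.7 and 44.7 FPKM in busulfan plus AOS, 33.9, 71.4 and 42.0 FPKM in busulfan, 11.3, 12.4 and 58.4 FPKM in AOS and 39.4, 35.2 and 31.9 FPKM in control. Both the lowest values and a value above every control library were found among the AOS libraries. Gsta1, the mouse gene that bears the name of the human busulfan-conjugating enzyme, stood at 0 to 2.81 FPKM and was too low to test. Its highest value was in busulfan replicate 3, the library with adrenal transcripts. The 10 libraries without adrenal or hepatocyte transcripts reached at most 0.57 FPKM for Gsta1. The 2 genes cannot be cleanly separated here, because 90.5% of the 50-base stretches of Gsta1 transcripts and 49.8% of those of Gsta2 also occur elsewhere, in each other and in the gene models Gm3776 and Gm10639. The same holds for Gstp2 (54.3%) and Gstp1 (33.7%). Gstm3 (28.8%), Gstm1 (18.9%) and Gstt3 (12.5%) also share stretches, but their deposited counts had decimals in 0 of the 12 libraries.

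Neighbouring transferase genes differed widely in level. The mu-class genes lie together on chromosome 3, between positions 107895854 and 108045179 (Gstm5 to Gstm4), and ranged over means from 338 FPKM for Gstm1 to 0.658 FPKM for Gstm3, whose mean was 0.159 FPKM over the 11 libraries other than the hepatocyte library. The theta-class genes lie together on chromosome 10, between 75774117 and 75837419 (Gstt3 to Gstt2), and Gstt4, between its expressed neighbours, averaged 0.0325 FPKM. Gsta1, Gsta2 and Gsta4 lie on chromosome 9, as does Gclc, while Gsta3 is on chromosome 1. Gstp1, Gstp2 and Gstp3 lie on chromosome 19.

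Among the microsomal transferases Mgst3, which acts on lipid hydroperoxides and leukotrienes, was steady. Mgst3 measured 124, 147 and 103 FPKM in busulfan plus AOS, 102, 110.5 and 105 FPKM in busulfan, 110.3, 118 and 103 FPKM in AOS and 139, 106 and 115 FPKM in control. Mgst1, a detoxifying enzyme abundant in liver, measured 45.8, 48.3 and 456 FPKM in busulfan plus AOS, 36.2, 50.3 and 116 FPKM in busulfan, 51.1, 42.5 and 46.1 FPKM in AOS and 37.7, 41.4 and 32.0 FPKM in control. Its 2 high values belong to the hepatocyte and the adrenal library, and the other 10 libraries lay between 32.0 and 51.1 FPKM.

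The synthesis genes were all well expressed. Gss measured 176, 165 and 153 FPKM in busulfan plus AOS, 200.2, 155 and 111 FPKM in busulfan, 184, 186 and 163 FPKM in AOS and 168, 197 and 167 FPKM in control. Gclm measured 139, 128 and 123 FPKM in busulfan plus AOS, 160.2, 129.7 and 93.3 FPKM in busulfan, 155, 159 and 136 FPKM in AOS and 132, 148 and 149.6 FPKM in control. The groups overlapped for both, and for both the busulfan group held the highest and the lowest of the 12 libraries. Gclc and Gsr averaged 96.3 and 51.1 FPKM.

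Breakdown was led by Ggt1, the gamma-glutamyltransferase of the tubular brush border. Ggt1 measured 681, 693 and 635 FPKM in busulfan plus AOS, 829, 724 and 571 FPKM in busulfan, 766, 731 and 655 FPKM in AOS and 776, 739.6 and 807 FPKM in control. Chac2, which cleaves glutathione inside the cell at a slow basal rate, measured 42.7, 45.6 and 42.0 FPKM in busulfan plus AOS, 48.4, 35.9 and 30.9 FPKM in busulfan, 49.5, 47.7 and 43.5 FPKM in AOS and 44.2, 45.5 and 44.5 FPKM in control. For Ggt1 the busulfan plus AOS libraries all lay below the control libraries, and the other pairs of groups overlapped. For Chac2 all groups overlapped, and for both genes busulfan replicate 3 was the lowest library. Oplah and Ggct, which handle oxoproline and gamma-glutamyl amino acids, averaged 43.2 and 31.8 FPKM. Ggt6, Ggt5, Chac1 and Ggt7 averaged 5.16, 1.01, 0.598 and 0.227 FPKM. In all, 29 of the 45 genes averaged at least 10 FPKM, 11 at least 100 FPKM, and 10 less than 1 FPKM.

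**Figure D1:**
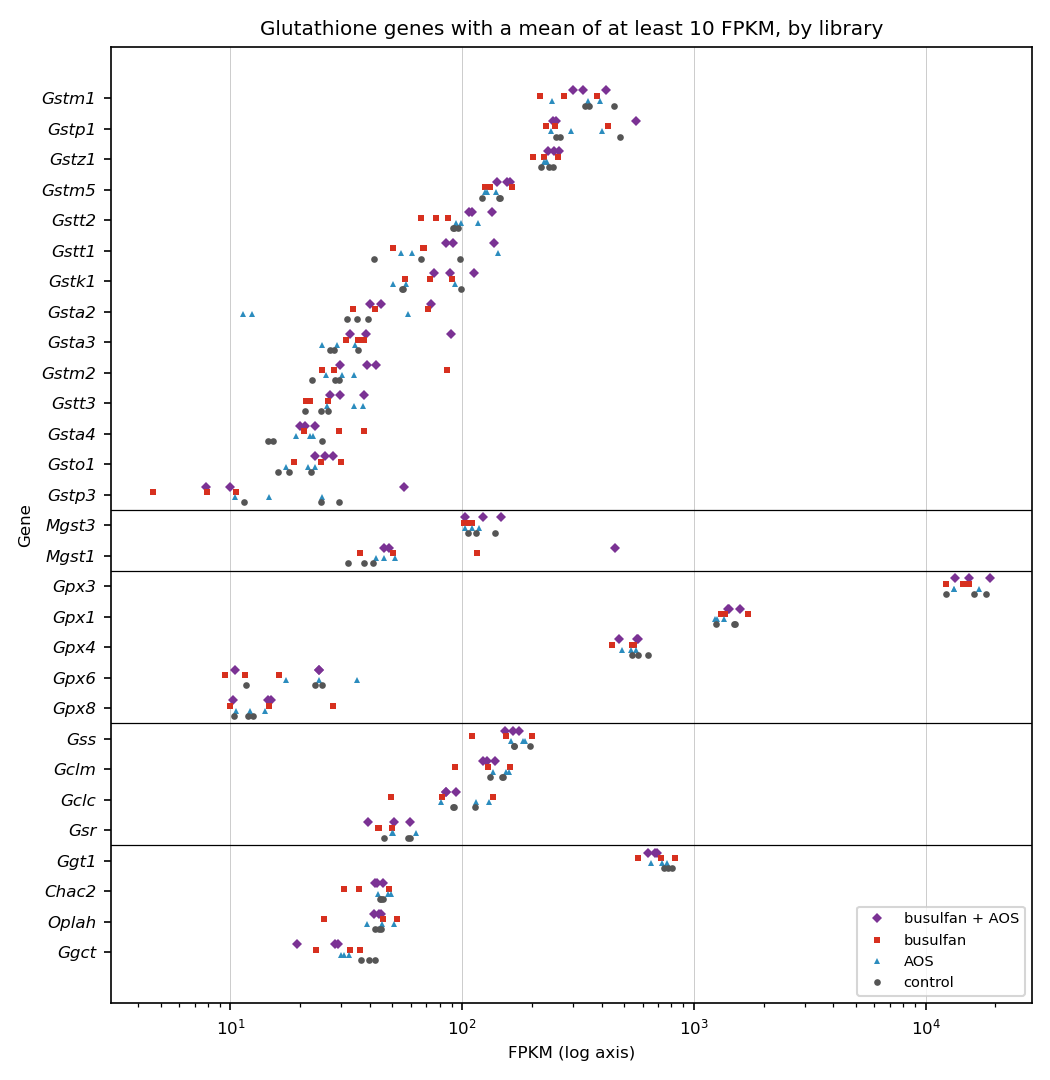
FPKM on a log axis for the 29 members that averaged at least 10 FPKM, with 1 point per library and the groups told apart by colour. Gpx3 lies at 12202 to 18971 FPKM, above every other member, and among the genes drawn Mgst1 (32.0 to 456 FPKM) and Gstp3 (4.63 to 55.9 FPKM) are spread the widest.

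Changes between groups were tested on counts with edgeR's quasi-likelihood test, adjusted by the Benjamini-Hochberg method over 14428 genes, and the levels given below are CPM normalized with TMM factors. Of the 45 members 38 had enough reads; Ggt7, Gpx2, Gpx5, Gsta1, Gstm3, Gstt4 and Mgst2 did not. No member passed an adjusted p of 0.05 in any of the 6 comparisons. In a bulk sample, fewer cells of a type and less RNA per cell cannot be told apart.

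The comparison of busulfan with control concerns the drug without AOS. The alpha-class gene Gsta4, which conjugates products of lipid peroxidation, had the lowest p and was higher in busulfan, while Gstt2, Gstp3 and Gpx4 were lower in every busulfan library than in every control library. Gsta4 measured 17.2, 24.3 and 28.5 CPM in busulfan and 20.8, 12.6 and 12.4 CPM in control. The groups overlapped through a single control library, and the log2 fold change was 0.62 ± 0.22 (SE), with an adjusted p of 0.424 by edgeR's quasi-likelihood test. Gstt2 measured 112, 118 and 94.8 CPM in busulfan and 135, 130.3 and 137 CPM in control, a log2 fold change of -0.31 ± 0.15. The pi-class gene Gstp3 measured 7.93, 6.15 and 3.18 CPM in busulfan and 8.28, 17.2 and 22.6 CPM in control, a log2 fold change of -1.48 ± 0.72. Gpx4 measured 460.2, 445 and 338 CPM in busulfan and 534, 474 and 463 CPM in control, a log2 fold change of -0.24 ± 0.12. For these 3 genes the groups did not overlap but came close, and their adjusted p was 0.522 by the same edgeR test.

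In that comparison 0 of the 38 members passed the adjusted threshold, where 0.0416% of all genes did. At an unadjusted p under 0.05 there was 1 member (2.63%), against 10.1% of all genes. Lower without overlap lay 3 members (7.89%), against 5.63% of all genes, and higher without overlap 0 members, against 5.72%. The median log2 fold change was -0.12 over the members, with 14 higher and 24 lower, and 0.00 over all genes tested. With the adrenal and hepatocyte libraries left out the members' median was -0.02, with 16 higher and 22 lower, and 12 of the 38 members turned direction. The 95% intervals of 21 members stayed within a 2-fold change in either direction, those of Gpx3 (-0.60 to 0.18), Gpx1 (-0.31 to 0.28) and Gstz1 (-0.34 to 0.16) among them. Without the adrenal and the hepatocyte library the log2 fold changes were 0.45 for Gsta4 and -1.18 for Gstp3. Leaving out busulfan replicate 3 alone moved that of Gpx4 to -0.12.

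Busulfan plus AOS against AOS repeats the drug contrast in AOS-treated mice, with other libraries on both sides. The 4 members of lowest p were all higher in busulfan plus AOS, and 3 of them rested on the library with hepatocyte transcripts. Gstm6, a mu-class gene of low level, measured 1.18, 1.06 and 9.01 CPM in busulfan plus AOS and 0.774, 0.410 and 0.622 CPM in AOS. The groups did not overlap, and the log2 fold change was 2.62 ± 0.77, with an adjusted p of 0.476 by edgeR's quasi-likelihood test. Without busulfan plus AOS replicate 3 it was 0.88. The alpha-class gene Gsta3 measured 47.2, 40.1 and 118 CPM in busulfan plus AOS and 36.4, 30.5 and 42.1 CPM in AOS. Its log2 fold change was 0.91 ± 0.34, and 0.26 without that library. Gstm4 measured 10.8, 13.9 and 20.6 CPM in busulfan plus AOS and 12.2, 10.1 and 8.84 CPM in AOS. Its log2 fold change was 0.54 ± 0.21, and 0.25 without that library. For Gsta3 and Gstm4 the groups overlapped.

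Ggt6, a little-studied relative of Ggt1, depended less on that library. It measured 10.6, 15.6 and 16.4 CPM in busulfan plus AOS and 8.51, 8.41 and 10.8 CPM in AOS, groups that just overlapped. The log2 fold change was 0.62 ± 0.23, and 0.50 without busulfan plus AOS replicate 3. Over the set, 0 of 38 members passed the adjusted threshold (0.0693% of all genes), and 6 (15.8%) had an unadjusted p under 0.05 (9.16% of all genes). Higher without overlap lay 5 members (13.2%, against 8.49% of all genes), namely Gstm6, Gstm5, Gsto1, Gstm7 and Gpx1. Lower without overlap lay 0 members, against 8.68% of all genes. The members' median log2 fold change was 0.21, against 0.00 over all genes tested, and 0.17 with the adrenal and hepatocyte libraries left out.

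The average busulfan effect sets the 6 libraries with busulfan against the 6 without. The omega-class gene Gsto1, which reduces oxidized thiols, had the lowest p, followed by Mgst1, Gstm7 and Gstm6. Gsto1 measured 23.6, 26.3 and 30.3 CPM in busulfan plus AOS, 19.9, 25.7 and 28.7 CPM in busulfan, 18.3, 22.2 and 23.6 CPM in AOS and 23.8, 16.9 and 19.3 CPM in control. The libraries with and without busulfan overlapped, and the log2 fold change was 0.32 ± 0.12, with an adjusted p of 0.368 by edgeR's quasi-likelihood test. Mgst1 measured 36.2, 38.3 and 388 CPM in busulfan plus AOS, 29.5, 40.7 and 86.5 CPM in busulfan, 41.4, 33.5 and 36.3 CPM in AOS and 31.0, 33.5 and 26.8 CPM in control. Its log2 fold change of 1.42 ± 0.56 was 0.11 ± 0.11 without the hepatocyte and the adrenal library. Gstm7 measured 5.39, 4.66 and 10.3 CPM in busulfan plus AOS, 4.07, 3.77 and 14.5 CPM in busulfan, 3.31, 3.62 and 4.07 CPM in AOS and 5.30, 3.75 and 3.05 CPM in control. Its 2 highest values were again in those libraries, and its log2 fold change of 0.89 ± 0.36 was 0.21 without them. For Gstm6 the values were 1.32 ± 0.56 with them and 0.40 without them, and for Gsto1 0.20 without them.

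Abundant genes of synthesis, reduction, peroxide removal and breakdown had the following estimates. The average busulfan effect was -0.24 for Gclc (95% interval -0.73 to 0.26), -0.16 for Gclm (-0.44 to 0.11), -0.16 for Gss (-0.46 to 0.14), -0.22 for Gsr (-0.46 to 0.03), -0.03 for Gpx3 (-0.31 to 0.25) and -0.13 for Ggt1 (-0.36 to 0.10) on the log2 scale. With the adrenal and hepatocyte libraries left out these were -0.13 for Gclc, -0.08 for Gclm, -0.04 for Gss, -0.13 for Gsr, 0.02 for Gpx3 and -0.05 for Ggt1. Over the set 27 of 38 intervals stayed within a 2-fold change and 16 within a 1.5-fold change. Of the 38 members 0 passed the adjusted threshold (0.194% of all genes) and 4 (10.5%) had an unadjusted p under 0.05 (12.1% of all genes). The median was 0.04, with 22 members higher and 16 lower, against 0.00 over all genes. It was 0.07, with 26 higher and 12 lower, when the adrenal and hepatocyte libraries were left out.

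**Figure D2:**
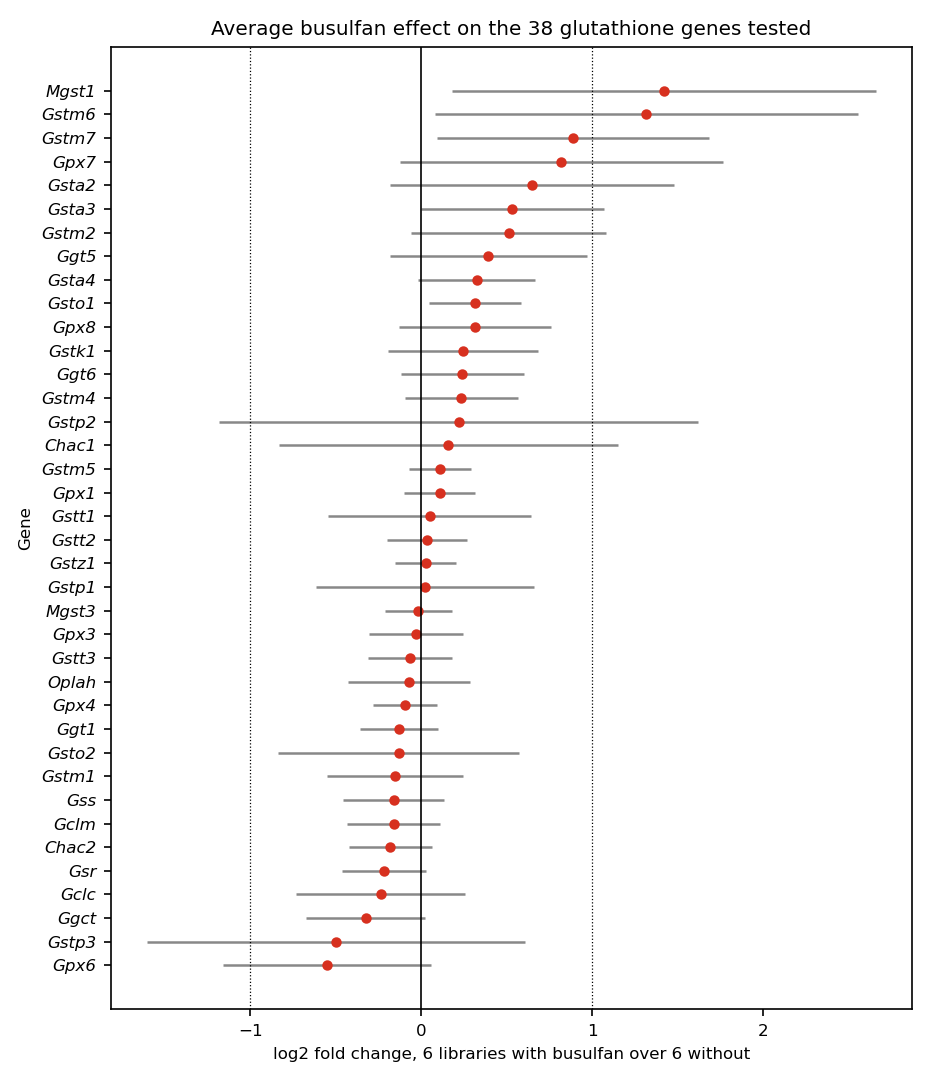
Average busulfan effect on the 38 members tested, as log2 fold change of the 6 libraries with busulfan over the 6 without, with points for the estimate, bars for the 95% interval and dotted lines at a 2-fold change. Mgst1 (1.42), Gstm6 (1.32) and Gstm7 (0.89) lie at the top with wide intervals, and Gpx3 (-0.03) and Gstz1 (0.03) lie near 0 with narrow intervals. Other abundant genes have wider intervals, such as Gstp1 (-0.61 to 0.66) and Gstm1 (-0.55 to 0.24).

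Outside the set, a gene of the same detoxification chain was called. Ephx1, the microsomal epoxide hydrolase that works beside the transferases in detoxification, measured 83.0, 64.6 and 107 CPM in busulfan plus AOS, 41.9, 72.1 and 130.5 CPM in busulfan, 24.7, 25.4 and 22.2 CPM in AOS and 24.0, 19.7 and 16.0 CPM in control. Every library with busulfan was above every library without, and its average log2 fold change was 1.93 ± 0.25, with an adjusted p of 0.00920 by edgeR's quasi-likelihood test, and 1.57 ± 0.16 with the adrenal and hepatocyte libraries left out (adjusted p of 0.00850). It was not called in either busulfan contrast taken alone (adjusted p of 0.128 in busulfan against control and 0.190 in busulfan plus AOS against AOS, by the same edgeR test). A list of 38 further genes covered glutathione and antioxidant metabolism (glutaredoxins, glyoxalases, cysteine supply, conjugate transporters, Nrf2 and its other targets). Of these, 35 were tested, and 0 were called higher and 0 lower in each of the 6 comparisons by edgeR's test. For the average busulfan effect 15 were measured higher and 20 lower. An unadjusted p under 0.05 was reached by 5 of the 35 in busulfan against control (10.1% of all genes), 3 in busulfan plus AOS against AOS (9.16%), 6 in the average busulfan effect (12.1%), 2 in AOS against control (3.59%), 1 in busulfan plus AOS against busulfan (8.70%) and 2 in the interaction (5.89%). Its lowest p for the average busulfan effect was that of the glutaredoxin gene Glrx3, at 100.1, 106 and 101 CPM in busulfan plus AOS, 99.9, 111 and 95.1 CPM in busulfan, 84.0, 79.3 and 87.2 CPM in AOS and 87.1, 87.2 and 87.4 CPM in control. The libraries with and without busulfan did not overlap for Glrx3, and its log2 fold change was 0.26 ± 0.05, with an adjusted p of 0.0827 by the same edgeR test, and 0.29 with those libraries left out.

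Busulfan plus AOS against busulfan asks whether AOS altered the kidney after the drug. Here the theta-class transferase Gstt2 and the gamma-glutamyltransferase Ggt6 were higher in every busulfan plus AOS library than in every busulfan library. Gstt2 (Entrez 14872, chr10:75831842-75837419) measured 144, 223 and 202 CPM in busulfan plus AOS and 112, 118 and 94.8 CPM in busulfan. The groups averaged 190.0 ± 40.9 CPM in busulfan plus AOS and 108 ± 12.1 CPM in busulfan (SD, n = 3 each), a 1.76-fold difference. Its log2 fold change was 0.81 ± 0.15, with an adjusted p of 0.477 by edgeR's quasi-likelihood test and an unadjusted p of 0.000278. Ggt6 (Entrez 71522, chr11:72435247-72438566) measured 10.6, 15.6 and 16.4 CPM in busulfan plus AOS and 6.14, 7.33 and 4.86 CPM in busulfan. The groups averaged 14.2 ± 3.13 CPM in busulfan plus AOS and 6.11 ± 1.24 CPM in busulfan, a 2.33-fold difference with no overlap. Its log2 fold change was 1.22 ± 0.23, with the same adjusted p of 0.477 and an unadjusted p of 0.000310 in edgeR's test.

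The call on these 2 genes turned on the tool. DESeq2 called both, with adjusted p of 0.00110 for Gstt2 and 0.00282 for Ggt6 and the same fold changes. In edgeR's test Gstt2 passed only when busulfan plus AOS replicate 1 was left out (log2 fold change 0.97, adjusted p of 0.0172), and the lowest adjusted p of Ggt6 with a library left out was 0.0601. Without the adrenal and the hepatocyte library the log2 fold changes were 0.68 ± 0.18 for Gstt2 and 0.96 ± 0.26 for Ggt6, with adjusted p of 0.440 and 0.441 by edgeR's quasi-likelihood test.

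The other expressed theta-class genes lay the same way. Gstt3, a neighbour of Gstt2, measured 64.2, 50.5 and 49.4 CPM in busulfan plus AOS and 39.0, 45.8 and 34.0 CPM in busulfan, a log2 fold change of 0.47 ± 0.16. Gstt1, which lies between them, measured 122, 81.8 and 81.3 CPM in busulfan plus AOS and 61.9, 45.9 and 57.2 CPM in busulfan, a log2 fold change of 0.79 ± 0.38. In all 3 genes the groups did not overlap, and in all 3 the adjusted p lay above 0.05 in edgeR's test. Gstm6 was also higher without overlap, with a log2 fold change of 2.54 ± 0.77, and 0.80 without busulfan plus AOS replicate 3. In the busulfan libraries Gstm6 measured 0.414, 0.768 and 0.720 CPM. Gsto2 was the only member lower without overlap, with a log2 fold change of -0.90.

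Counted over the set, 0 of 38 members passed the adjusted threshold in busulfan plus AOS against busulfan, where 0% of all genes did (DESeq2 called 24 genes). An unadjusted p under 0.05 in edgeR's test was reached by 4 members (10.5%) and by 8.70% of all genes, or 1255 genes. Groups lay apart and higher in 5 members (13.2%), against 4.20% of all genes, and apart and lower in 1 member (2.63%), against 4.19%. The median log2 fold change was 0.15 over the members, with 27 higher and 11 lower, and -0.01 over all genes tested. Without the adrenal and the hepatocyte library the median was 0.07, with 23 higher and 15 lower, and 14 of the 38 members turned direction.

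**Figure D3:**
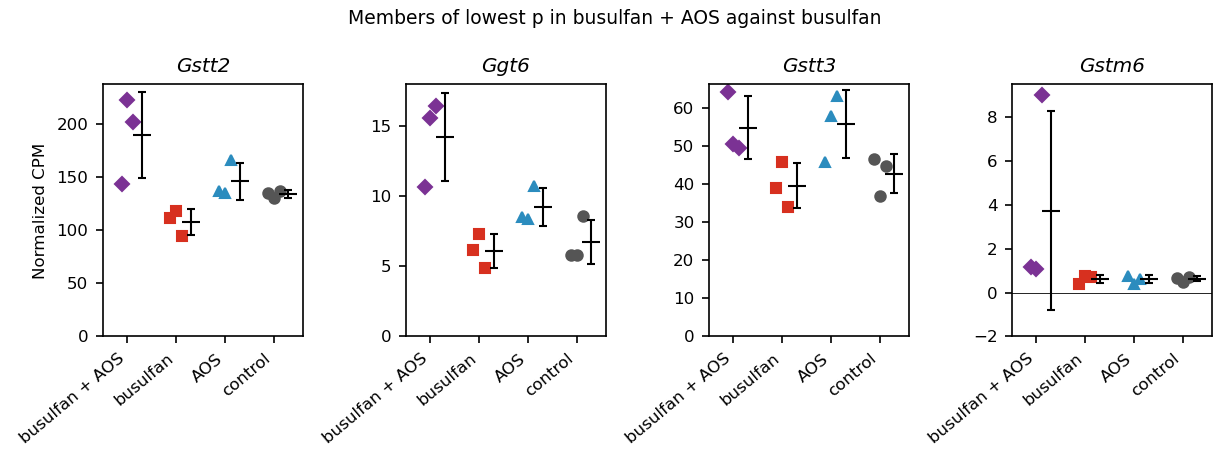
Normalized CPM per library for Gstt2, Ggt6, Gstm6 and Gstt3, the 4 members of lowest p in busulfan plus AOS against busulfan, by group, with points for libraries and a bar for the mean and SD of 3. For each gene the busulfan plus AOS libraries lie above the busulfan libraries, and for Gstm6 the mean is set by the single library at 9.01 CPM.

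AOS against control asks what AOS alone did. Of the 14428 genes tested 0 (0%) passed, and so did 0 of the 38 members; 518 genes (3.59%) had an unadjusted p under 0.05 in edgeR's test, 1 member (2.63%) among them, and DESeq2 called 10 genes and 0 members. That member was Gstt3, at 45.8, 57.9 and 63.2 CPM in AOS and 46.6, 36.9 and 44.6 CPM in control. The groups overlapped, and the log2 fold change was 0.38 ± 0.16. Chac1, a stress-induced gene whose product degrades glutathione, measured 0.563, 0.479 and 0.345 CPM in AOS and 1.23, 0.866 and 1.60 CPM in control. The Chac1 groups did not overlap, the log2 fold change was -1.40 ± 0.65, and the counts behind it were 5 to 22 reads a library. Ggct, the gamma-glutamylcyclotransferase, measured 37.1, 33.3 and 32.6 CPM in AOS and 44.7, 40.0 and 50.1 CPM in control, also without overlap, a log2 fold change of -0.39 ± 0.22. Ggt6 measured 8.51, 8.41 and 10.8 CPM in AOS and 5.81, 5.84 and 8.57 CPM in control, a log2 fold change of 0.45 ± 0.23. Adjusted p was 1 for all 4 genes in edgeR's quasi-likelihood test.

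In AOS against control 4 members (10.5%) lay lower without overlap, against 6.75% of all genes, namely Chac1, Ggct, Gstm4 and Gpx4. Higher without overlap lay 0 members, against 6.17% of all genes. The median log2 fold change was -0.08 over the members and 0.00 over all genes. The intervals of 25 members stayed within a 2-fold change.

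The interaction asks whether the busulfan effect differed with and without AOS. Gstt2 again had the lowest p: its busulfan effect was 0.38 ± 0.15 on the log2 scale in AOS-treated mice and -0.31 ± 0.15 in mice without AOS. The difference was 0.69 ± 0.21 (95% interval 0.21 to 1.16), with an adjusted p of 0.794 by edgeR's quasi-likelihood test, and 0.55 with the adrenal and hepatocyte libraries left out. Those of Ggt6, Mgst3 and Gstm6 were 0.77 ± 0.33, 0.44 ± 0.18 and 2.61 ± 1.12, with the same adjusted p of 0.794. Mgst3 measured 60.5, 72.1 and 53.8 CPM in busulfan plus AOS, 51.4, 55.1 and 48.3 CPM in busulfan, 55.2, 57.1 and 49.7 CPM in AOS and 70.5, 53.0 and 59.1 CPM in control, and any pair of groups overlapped. The difference of Gstm6 was 0.86 without busulfan plus AOS replicate 3. Of the members 0 passed the adjusted threshold, as did 0% of all genes; 5 members (13.2%) had an unadjusted p under 0.05, against 5.89% of all genes (850 genes; DESeq2 called 11 genes and 0 members). The comparisons share libraries, so their values for Gstt2 and Ggt6 are not independent of each other.

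In the 2 libraries with transcripts of other organs many members lay outside the range of the remaining 10 libraries. Among the 35 members that averaged at least 1 FPKM, 10 (28.6%) were higher in busulfan plus AOS replicate 3 than in all 10 remaining libraries, against 8.09% of 12194 genes of that level, and 6 (17.1%) were lower, against 22.6%. In busulfan replicate 3, 8 members (22.9%) lay above the 10 libraries, against 27.2% of those genes, and 14 (40.0%) lay below, against 12.3%. The 1 FPKM average was taken over all 12 libraries, these 2 included, for members and genes alike. Gstm6 (median of 0.66 FPKM over the 10) reached it through busulfan plus AOS replicate 3, and Ggt5 (0.865 FPKM) through busulfan replicate 3. Each was then counted as higher in that library, so the counts of higher members are not independent of the filter. In the hepatocyte library Gstm6 stood at 12.8 times the median of the 10 libraries, Mgst1 at 10.3 times, Gstp3 at 5.06 times, Gsta3 at 2.66 times, Gstm7 at 2.54 times and Gstp1 at 2.17 times. Gstm3 measured 0.130, 0.0700 and 6.15 FPKM in busulfan plus AOS, or 2, 1 and 95 reads, against at most 8 reads in any library of the other groups. Alb, serum albumin, measured 9526 CPM in that library, and the part of liver RNA in these values was not tested.

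In the adrenal library the genes that stood out were partly the same, such as Gstm7, Mgst1 and Gstm3, and partly others. Mgst2, a microsomal transferase with leukotriene synthase activity, measured 0.180, 0.470 and 8.85 FPKM in busulfan, or 1, 3 and 64 reads, against 0 or 1 read in each of the other 9 libraries. Gstm7 stood at 3.96 times the median of the 10 libraries and Gpx7, a peroxidase of the endoplasmic reticulum, at 3.76 times. Gstm2 followed at 2.98 times, Ggt5 at 2.79 times, Mgst1 at 2.63 times and Gpx8 at 2.25 times. Gsta1 and Gstm3, both of very low level, stood at 9.1 times (2.81 FPKM) and 3.77 times (0.49 FPKM). At the low end were Gpx6 at 0.402 times, Gstp3 at 0.419 times, Gclc at 0.536 times, Oplah at 0.569 times and Gstm1 at 0.630 times. Star, the cholesterol carrier of steroid synthesis, measured 3202 CPM in that library, and its fibroblast marker sum was 452 CPM, against 68.2 to 191 CPM in the other 11 libraries. Its sums of 4 endothelial and 4 macrophage markers, at 233 and 121 CPM, were also the highest of the 12. The part of RNA from any of these sources in the values was not tested. For Gstp3 the direction turned: its log2 fold change in busulfan plus AOS against AOS was 0.48 with all libraries and -0.98 when the hepatocyte and adrenal libraries were left out.

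**Figure D4:**
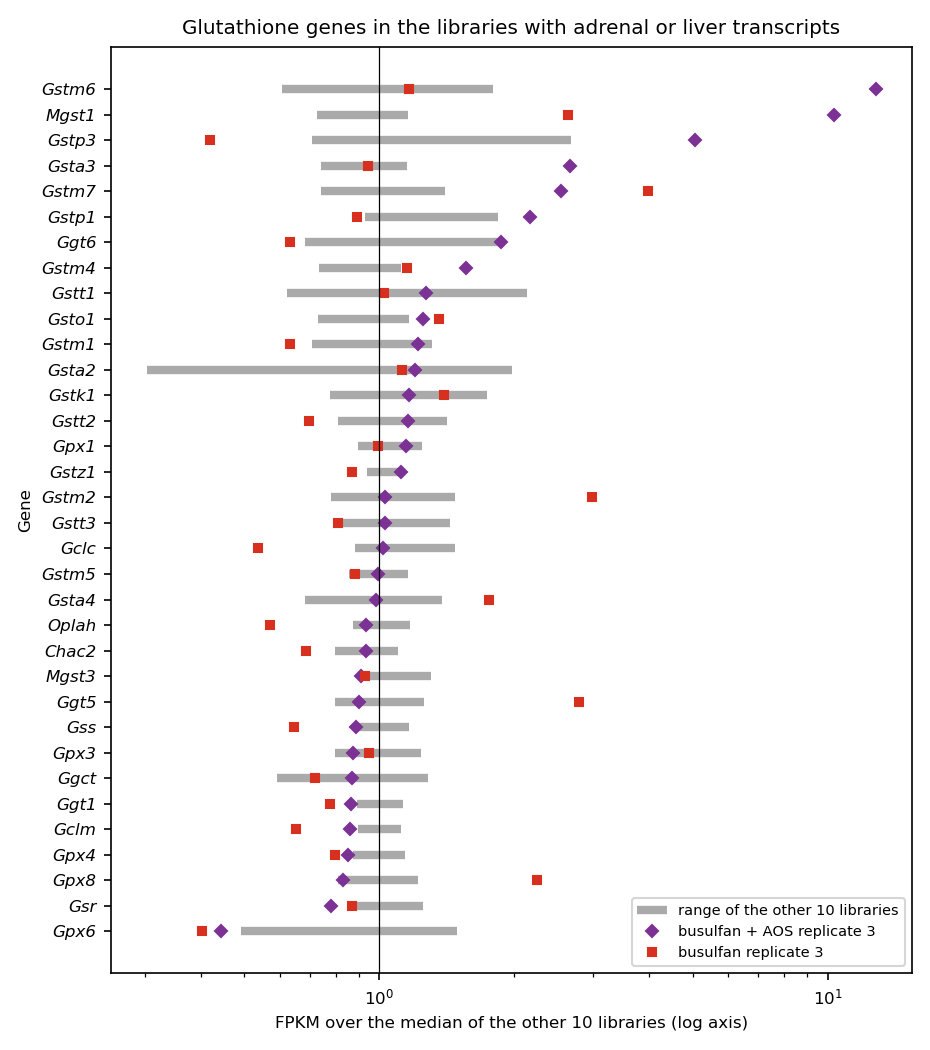
Levels of 34 members in busulfan plus AOS replicate 3 and in busulfan replicate 3, as FPKM over the median of the other 10 libraries on a log axis, with a grey bar for the range of those 10. Gstm6 and Mgst1 lie more than 10 times above the median in the first library, and Gclc, Gss and Gclm lie below the range in the second. Gss and Gclm also lie slightly below the range in the first.

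The synthesis genes varied together from library to library. Over the 12 libraries the log2 normalized CPM of Gclc and Gclm had a Pearson r of 0.951 (permutation p of 6e-05, adjusted 0.0142 over 406 pairs of 29 members) and a Spearman rho of 0.825. Gclm and Gss had an r of 0.961 (permutation p of 0.00016) and a rho of 0.839, and Gclc and Gss an r of 0.939 (permutation p of 0.00018) and a rho of 0.860. Chac2 followed them, with r of 0.925 with Gclm, 0.923 with Gss and 0.903 with Gclc, and rho of 0.860, 0.867 and 0.895. Each of these 6 pairs had an adjusted permutation p of 0.0142 for r; for rho the adjusted permutation p was 0.0442 to 0.0668, and above 0.05 for Gclc with Gclm and Gclm with Gss. Without the 2 libraries farthest from the median of the first gene, r was 0.840 for Gclc and Gclm, 0.745 for Gclm and Gss and 0.777 for Gclc and Gss. Without the adrenal and the hepatocyte library it was 0.892, 0.843 and 0.883, and for Chac2 0.723 to 0.739. After the group means were removed, r was 0.947, 0.958 and 0.946 for the 3 synthesis pairs.

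Behind these values Gclc measured 264, 268 and 316 CPM in busulfan plus AOS, 437, 266 and 146 CPM in busulfan, 367, 409 and 254 CPM in AOS and 299.7, 361 and 307 CPM in control. The busulfan group alone spanned the whole range, from its replicate 1 to its adrenal replicate 3. Gclm spanned 241 to 451 CPM and Gss 186 to 367 CPM in that same group. Gsr, which recycles glutathione and does not build it, followed less closely, with r of 0.486 to 0.643 with the same 4 genes (adjusted permutation p of 0.0959 to 0.318). Of the 406 pairs, 19 passed an adjusted p of 0.05 for Pearson's r in the permutation test, 13 positive and 6 negative, and 8 of them also passed for rho.

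The closeness was not limited to these genes. Among the 14427 other genes tested Gclm was the 7th nearest to Gclc by r, Gss the 19th and Chac2 the 52nd, and 55 genes (0.381%) had an r of at least 0.9 with Gclc. With the adrenal and hepatocyte libraries left out their places were 26th, 35th and 316th. The summed proximal tubule markers moved with the same genes, with r of 0.710 for Gclc, 0.754 for Gclm, 0.797 for Gss and 0.795 for Chac2 over 12 libraries (adjusted permutation p of 0.0246 for each). The rho values were 0.462, 0.357, 0.504 and 0.601, with permutation p of 0.135, 0.257, 0.0981 and 0.0424. The relation rested on few libraries: r was 0.398, 0.456, 0.492 and 0.471 without the 2 libraries farthest from the median, and 0.243, 0.171, 0.277 and 0.399 without the adrenal and hepatocyte libraries. Kap made up most of the marker sum in every library and was lowest in busulfan replicate 3, at 20629 CPM. The relation without Kap was not tested, nor was the part of tubule content in the shared variation.

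**Figure D5:**
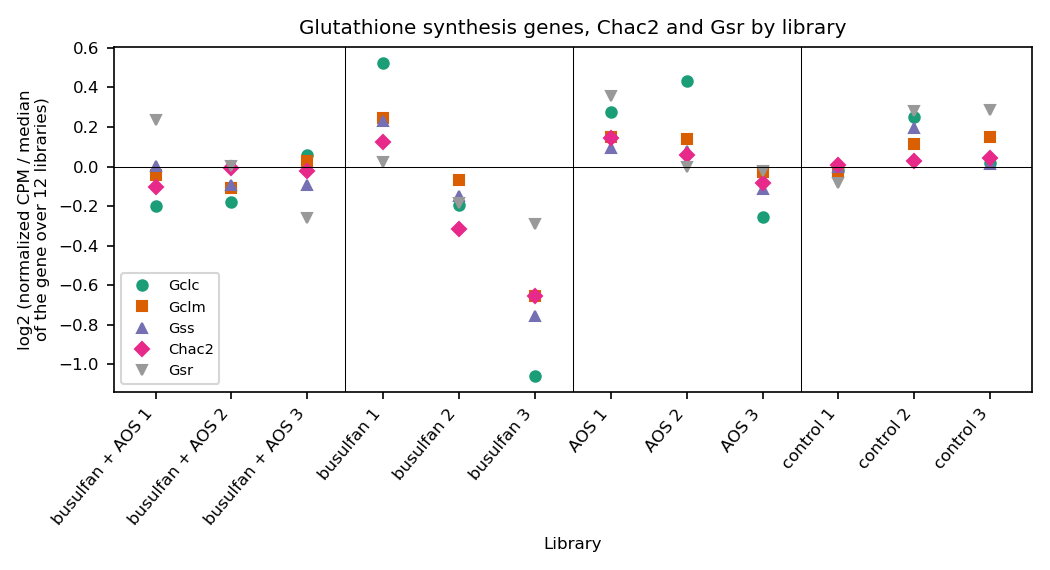
Normalized CPM of Gclc, Gclm, Gss, Chac2 and Gsr in each library, as log2 over the gene's median of 12 libraries. Gclc, Gclm and Gss are highest in busulfan replicate 1. All 3, Chac2 and Gsr are lowest in busulfan replicate 3, where Gsr lies nearer to its median than the others.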

How the data were processed

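The authors deposited 1 table for all 12 kidney libraries, holding estimated counts (expected counts per gene) and an expression value per library, mapped to mm10 per the submitters' processing notes, with aligner and quantification tool not given in the sources used here. Decimals in the deposited counts (76.8% to 78.8% were whole within 0.005) mean that reads were shared between similar transcripts, which makes close paralogs uncertain. The deposited expression value was taken as FPKM, since dividing it by the count per library total gave each gene a near-constant factor, within 0.297% between libraries. Strandedness is not stated.

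Rounded counts went into edgeR 4.0.16 (R 4.3.3), using filterByExpr, TMM factors and quasi-likelihood fits of 4 group means over all 12 libraries, two-sided, with Benjamini-Hochberg adjustment over 14428 genes and 0.05 as the threshold. The common biological coefficient of variation was 26.8%. Correlations used 100000 permutations. Positions are from RefSeq GRCm38.p6, to which all 45 members matched by Entrez identifier. Shared 50-base stretches were counted in GENCODE vM21 transcripts. Alternatives were DESeq2 1.42.0, relative log expression factors, no filter, limma 3.58.1 on log2(FPKM + 1), a replicate block, the fit without the 2 libraries that held adrenal or hepatocyte transcripts, and each library left out. The fitting procedure was tested on simulated data. The least different pair of replicates still differed by 5.36 times the sampling variance, so no library was counted as a duplicate.

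Members, gene lists and alternatives were chosen with earlier results of these data known. Named were the 4 members of lowest p in each comparison and the 2 most abundant of each role; Gsta2, Gsto2, Gstt1 and the genes singled out in the 2 libraries and in the correlations were chosen after their values were seen.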

Additional observations from a re-analysis of the deposited data

How the results depend on the processing

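The members called numbered 0 in edgeR's test and under every alternative run, with the exception of busulfan plus AOS against busulfan, where DESeq2 called 2 (Gstt2 and Ggt6) and the fit with a library left out called 0 to 1. For the 4 members of lowest p in each comparison there were 336 alternative values, of which 333 kept their direction and their side of the threshold, 0 reversed and 3 passed only in the alternative. Over all 38 members tested and 6 comparisons, 50 of 228 fold changes turned direction with the adrenal and hepatocyte libraries left out, none of them called; the lowest adjusted p among them was 0.539 in edgeR's test, and 0 of them turned in AOS against control. Counts over all genes moved more. DESeq2 called 124 genes when busulfan was set against control, 89 when busulfan plus AOS was set against AOS, 223 in the average busulfan effect, 10 in AOS against control, 24 in busulfan plus AOS against busulfan and 11 in the interaction. In the same order the counts with a library left out were 2 to 195, 1 to 25, 18 to 163, 0 to 0, 0 to 26 and 0 to 1. The replicate block called 4 genes in busulfan plus AOS against AOS. Whether the replicate numbers pair the samples could not be decided. Deviations from the group means had an r over 0.1 in 4 of 18 same-numbered pairs (r of -0.26 to 0.16). The best match in another group had the same number in 16 of 36 cases. With 3 libraries a group such deviations are too few to settle pairing. With the adrenal and hepatocyte libraries left out 6 genes passed in busulfan plus AOS against AOS and 1 in busulfan plus AOS against busulfan. With a library left out the members called were 0 to 0 in the other 5 comparisons. The cause of these differences was not tested. The groups had 3 libraries each, and the median coefficient of variation over the members was 22.6%. Changes of any size within the intervals given were not excluded. The 7 untested members had too few reads for the filter, and whether they were expressed was not tested.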
